A study of Mus musculus with 2 samples.

Results

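The digestive enzymes of pancreatic juice other than the serine proteases were examined in the pancreas of mice whose mothers had eaten a control or a threonine-deficient diet for part of pregnancy. The group held 9 genes of the 18193 read by a probe set with a single gene symbol. They were the amylase Amy1, the carboxypeptidases Cpa1 and Cpb1, the lipases Pnliprp1, Pnliprp2 and Cel, the phospholipase Pla2g1b, the lipase cofactor Clps and the ribonuclease Rnase1. They were chosen by name from the array annotation, and all of their 14 probe sets of 34945 with 1 symbol were used. Female C57BL/6J mice received control or threonine-deficient diet between embryonic days 12.5 and 14.5. All offspring studied were males, weaned at 3 weeks onto control diet and sampled at 10 weeks, so neither group was treated after birth. RNA from whole pancreas was pooled within each group, and each pool was read on 1 Affymetrix Mouse Genome 430 2.0 array. The labels do not say how many animals or litters were pooled. With 1 pool per group no value has a replicate, no p-value can be given, and every difference below is between 2 arrays.

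Acinar cells make up most of the pancreas and devote much of their mRNA to a small set of secreted enzymes. These are stored in zymogen granules and released into the duct after a meal. Amylase cuts starch, and the carboxypeptidases remove single amino acids from the carboxyl end of peptides. Carboxypeptidase A1 (Cpa1) prefers aromatic and aliphatic residues, and carboxypeptidase B1 (Cpb1) prefers lysine and arginine. Both are made as inactive precursors and cut by trypsin, as is the phospholipase A2 of group IB (Pla2g1b), which releases a fatty acid from phospholipids. Carboxyl ester lipase (Cel), also known as bile salt-stimulated lipase, hydrolyses cholesterol esters, triglycerides and other esters. Pnliprp1 and Pnliprp2 are relatives of pancreatic lipase. Pnliprp2 acts on galactolipids and on the triglycerides of milk fat, while Pnliprp1 has little known lipase activity. Colipase (Clps) holds pancreatic lipase at the surface of fat droplets covered with bile salts. Rnase1 degrades RNA.

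Values are MAS5 signals, a linear brightness per probe set after each array was scaled to the same trimmed mean of 500.0. The log2 ratio is that of the threonine-deficient over the control pool, so a positive value means a higher signal in the threonine-deficient pool. Signals under 264.9 were treated as a floor. A gene with several probe sets was read by the brightest. The local spread is a robust standard deviation of the log2 ratios of the 200 genes nearest in brightness. A log2 ratio of 0.32 or more in either direction was the smaller of the folds used for counts, and 2-fold was the larger. The local spread describes how much the genes nearest in signal differed between these arrays and is no error between animals. The brightness of a probe set depends on its probes as well as on the transcript, so ranks order signals and not amounts of mRNA.

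Both pools showed the markers of pancreas. All 10 acinar markers lay above the floor on both arrays, and the summed signal of that list was 1547972 for control and 1610008 for threonine-deficient offspring. Of these markers 7 had positive log2 ratios and 3 negative ones, Gp2 (−0.11), Spink1 (−0.050) and Ptf1a (−0.27). Part of the list is digestive enzymes that are counted again below. Liver and intestine markers were mostly at the floor, with 2 of 6 above it. Marker signals of other cell types differed between the pools. All 7 islet markers were lower in signal in the threonine-deficient pool, with a sum of 144276 against 175763. All 6 adipocyte markers above the floor, of 7 listed, were lower too, with a sum of 23074 against 42481. Of the duct list, 3 of 7 markers were above the floor: Krt19 (0.30) and Sox9 (0.89) had positive log2 ratios and the brightest, Muc1, a negative one (−0.12). Of 4 macrophage markers 3 were higher, with a list median of 0.44 and a sum of 6169 against 5799. The lower one, Lyz2 (−0.43), was the brightest of them in the control pool. Adgre1 and Cd68, among the higher ones, were near the floor there, at 344 and 350. The lymphoid and plasma cell list had 5 of 8 markers above the floor, 3 positive and 2 negative, and the negative ones were the plasma cell genes Jchain (−0.79) and Mzb1 (−1.12). In whole tissue, fewer cells of a type and less RNA per cell cannot be told apart, and the part of these shifts in the enzyme values was not tested. The ratio of the 3′ to the 5′ probe set, a measure of RNA integrity, was 0.973 and 0.828 for Gapdh and 1.46 and 1.53 for Actb in the control and threonine-deficient pools.

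Of the 9 genes, 8 were among the 21 brightest genes of both arrays, and their signals differed little between the pools. Their log2 ratios ran from 0.011 for Pnliprp2 to 0.14 for Cel, which is a signal at most 1.11-fold higher in the threonine-deficient pool. The ninth, Amy1, was dimmer and stood farther apart, at 1.35-fold higher. The median log2 ratio over the 9 genes was 0.12, and over the 10758 genes above the floor on at least 1 array it was 0.0011. All 9 ratios were positive with the signals as deposited, but Pnliprp2 turned slightly negative after a loess trend was removed, and Pnliprp2 and Pla2g1b did after quantile normalization. Quantile normalization also lowered the median of the 9 genes to 0.030 and that of the 21 brightest genes from 0.090 to 0.0. Among the 21 genes at least as bright as Cpa1, the second dimmest of the 9, 19 had a positive ratio, or 90.5%, against 50.1% of all genes above the floor. The 13 of them outside the group had a median of 0.089, and the 8 within it one of 0.11.

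**Figure D1:**
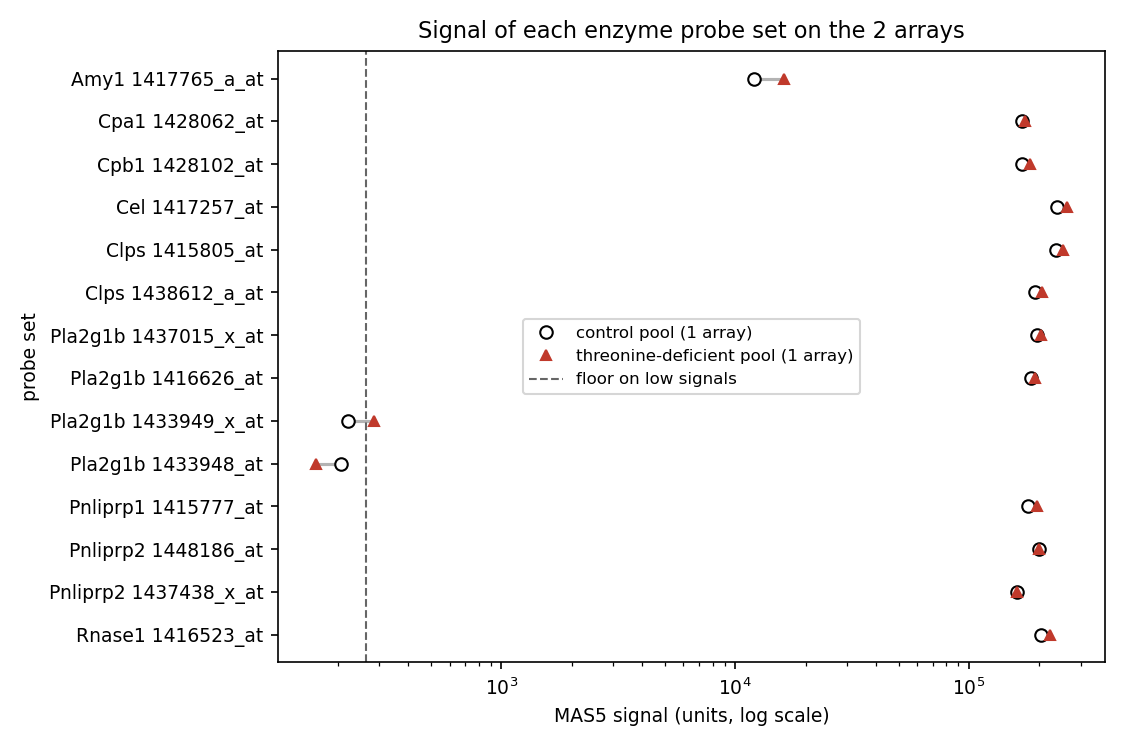
MAS5 signal of the 14 probe sets of the 9 enzyme genes on a log axis, with the control pool as open circles, the threonine-deficient pool as triangles and the floor as a dashed line. There are 11 probe sets above 100000 on both arrays, Amy1 lies at 12028 and 16214, and a pair for Pla2g1b lies near the floor.

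Together the 14 probe sets, 0.0311% of those on the array, held 4.0% of all control signal and 4.25% of that of the threonine-deficient pool. The lipases, Pla2g1b and Clps made up most of this, with 2.96% and 3.14% over 10 probe sets. The carboxypeptidases held 0.633% and 0.668%, Rnase1 0.380% and 0.414%, and Amy1 0.0225% and 0.0304%. Each class, as read by these 14 probe sets, thus took a larger share on the threonine-deficient array. The Amy1 share is not that of all amylase. It leaves out an amylase probe set annotated to 5 genes, far brighter than that of Amy1, at 263446 (control) and 274673 (threonine-deficient). The log2 ratio of that probe set was 0.060, against 0.43 for Amy1, but signals this bright can be compressed, which was not tested.

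Amy1, the amylase gene known for its use in salivary gland and liver, had a control signal of 12028, and in the threonine-deficient pool it read 16214. It ranked 281st of all genes on the control array and 201st on the other. The log2 ratio was 0.43, 2.95 times the local spread of 0.15. This made Amy1 the 1 gene of 9 with a log2 ratio of at least 0.32, and no gene of the 9 had one of −0.32 or less. Of all genes above the floor 18.7% and 16.6% did so, so the count of 1 in 9 is not above the background. None of the 9 was 2-fold apart, where 1.28% of all genes above the floor were that much higher and 0.874% that much lower. Dim genes made up most of that background. Of the 385 genes within 1 log2 unit of Amy1 in brightness, 12 or 3.12% had a log2 ratio of at least 0.32 and 5.71% one of −0.32 or less, and their median log2 ratio was −0.072. Of those 385, 2 had a higher ratio than Amy1, and both were found by looking at the values: Nedd4, a ubiquitin ligase gene, from 6452 to 9147, and Trp53inp1, a p53-induced gene, from 8303 to 11457. The central 90% of the 385, from the 5th to the 95th percentile, ran from −0.33 to 0.23, and Amy1 lay outside it.

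Amylase genes are close copies of one another, so the transcripts that the Amy1 probe set reads are uncertain. It ends in _a_at, a suffix for probes shared between transcripts of a gene, and no other probe set read Amy1 alone. The amylase probe set that carries 5 symbols, and is therefore given to no single gene, was the brightest of the control array at 263446 and the second brightest of the threonine-deficient array at 274673. Its log2 ratio of 0.060 lay far below that of Amy1 and within the range of the lipases. Whether compression of so bright a signal lowered this ratio was not tested. A further probe set that carries Amy1 together with another gene had signals of 262 and 242, both under the floor. The higher amylase signal therefore rested on 1 probe set.

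**Figure D2:**
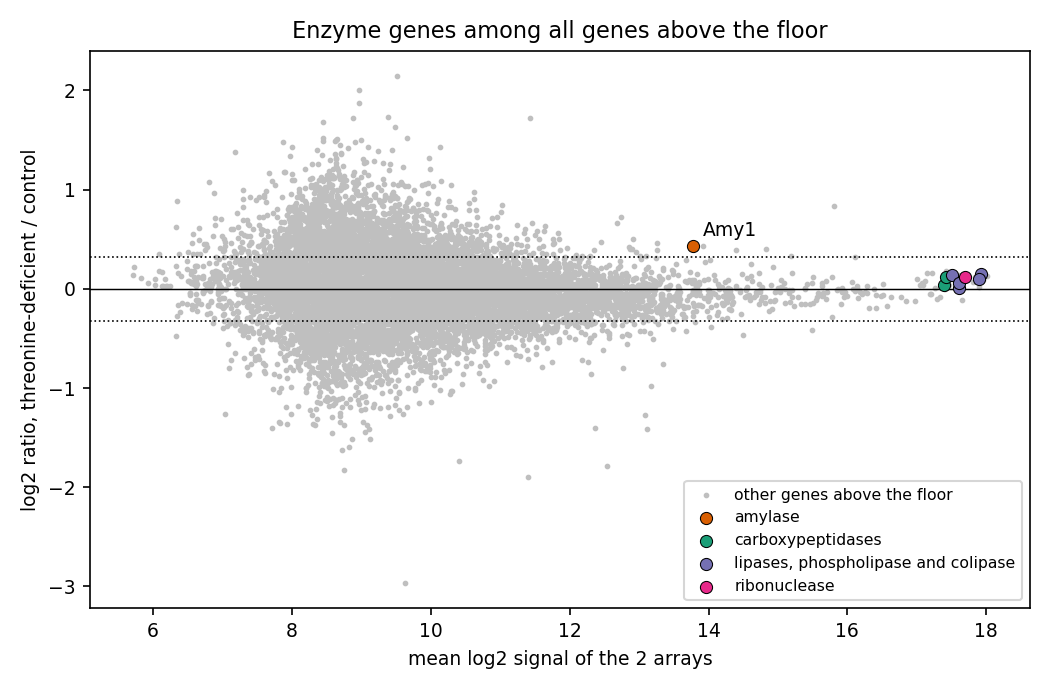
Log2 ratio of the threonine-deficient over the control pool against mean log2 signal, 1 point per gene above the floor on at least 1 array, with the 9 enzyme genes coloured by class and dotted lines at log2 ratios of 0.32 and −0.32. Ratios scatter less as signal rises, 8 enzymes lie together at the bright end, and Amy1 lies above the upper line at 0.43.

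The carboxypeptidase genes had nearly the same signal in the control pool, 168872 for Cpa1 and 168534 for Cpb1. In the threonine-deficient pool Cpa1 read 173591 and Cpb1 182757. The log2 ratio was 0.040 for Cpa1 and 0.12 for Cpb1, and each gene was read by 1 probe set. The local spread of both was 0.099, the same for all 8 bright genes because they share their 200 nearest genes. Most of those 200 genes were dimmer than the 8, so the spread among genes this bright may differ. The carboxypeptidases differed from each other by 0.077, less than that spread. Neither reached a log2 ratio of 0.32, and none of the 21 brightest genes did in either direction (0.0%).

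Related carboxypeptidases that act outside pancreatic juice ranked far lower on both arrays, and they did not share a direction. Cpe, which trims prohormones in islet granules, went from 6832 to 5942, a log2 ratio of −0.20. Cpn1, a plasma carboxypeptidase gene, went from 3452 to 2607 (−0.41), and Cpd, of the trans-Golgi network, from 1317 to 1372 (0.059). The dimmer genes Cpm and Cpq went from 778 to 443 (−0.81) and from 626 to 693 (0.15).

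Among the lipases, Cel had the highest ratio. Its signal went from 237669 in the control to 262788 in the threonine-deficient pool, and it was the 4th and the 2nd brightest gene of these arrays. The log2 ratio was 0.14, 1.46 times the local spread, and 1 of the 21 brightest genes had a higher one. Pnliprp1 went from 178156 in the control pool to 195591, a log2 ratio of 0.13. Pnliprp2 read 198429 and 199973 in its brighter probe set and 160404 and 160019 in the other. These gave log2 ratios of 0.011 and −0.0035, so neither reading of Pnliprp2 separated the pools. The lipase relatives thus differed in ratio by 0.12, beside 0.14 for the local spread times the square root of 2. That spread comes mostly from dimmer genes, so whether 0.12 is large for genes this bright was not tested. Pnliprp2 went from the 10th to the 13th brightest gene, while Pnliprp1 was 15th on both arrays.

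Colipase was read by a pair of bright probe sets that gave closely similar ratios. The brighter went from 236576 to 252959, a log2 ratio of 0.097, and the other from 191107 to 205791, a ratio of 0.11. Pla2g1b had 2 bright probe sets, from 194977 to 203451 and from 183618 to 191591, both with a log2 ratio of 0.061. Its other 2 probe sets, annotated to a sequence record of their own, were at the dim end. One had 206 and 160, under the floor on both arrays. The other had 221 in the control pool, under the floor, and 286 in the threonine-deficient pool, just above it, which gave a log2 ratio of at least 0.11. Neither bears on the bright readings.

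Repeat readings show how far such small ratios can differ within a gene. The bright probe sets of Pla2g1b differed by 0.00010, those of Clps by 0.010 and those of Pnliprp2 by 0.015 in log2 ratio. Over the 10 genes that had more than 1 probe set of mean signal 100000 or more, the median range was 0.029. The widest was 0.24, for the trypsinogen-like gene 2210010C04Rik, whose readings took both signs. The 4 bright probe sets of Prss2 ran from 0.022 to 0.15, a range of 0.12. Ranges of that size are as large as many of the ratios of the bright enzymes. Probe sets on 1 array share the RNA and the hybridisation, so their closeness says nothing about variation between animals.

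Lipases and phospholipases outside pancreatic juice ranked much lower. Lipoprotein lipase (Lpl), an enzyme abundant in fat and muscle, went from 11407 to 9278, a log2 ratio of −0.30. The group XIIA phospholipase gene Pla2g12a went from 1437 to 1297 (−0.15). Ratios in this class took both signs. Among the dim genes, Pla2g2d, at the floor in the control pool, and Pla2g12b had log2 ratios of at least 0.64 and of 0.45. Lipe went from 571 and Pla2g2a from 373 to the floor in the threonine-deficient pool. Their log2 ratios were −1.11 or lower and −0.49 or lower. Lpl also belongs to the adipocyte list, which was lower as a whole in the threonine-deficient pool.

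Rnase1 went from 202792 in the control to 220872 in the threonine-deficient pool, a log2 ratio of 0.12 and 1.24 times the local spread. It was the 9th brightest gene of the control array and the 8th of the other. Other secreted ribonucleases of the same superfamily went from 37755 to 37411 for Ang (−0.013) and from 15710 to 16794 for Rnase4 (0.096). Rnh1, the cytosolic inhibitor that binds enzymes of this family, went from 12442 to 10680, a log2 ratio of −0.22. The probe sets of Ang and Rnh1 end in _s_at and may be shared. Over all 32 listed relatives that act outside pancreatic juice, 17 were above the floor on at least 1 array, 7 with positive and 10 with negative ratios and a median of −0.15. Of these 17, 3 had a log2 ratio of at least 0.32 and 5 one of −0.32 or less, beside 18.7% and 16.6% of all genes above the floor.

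**Figure D3:**
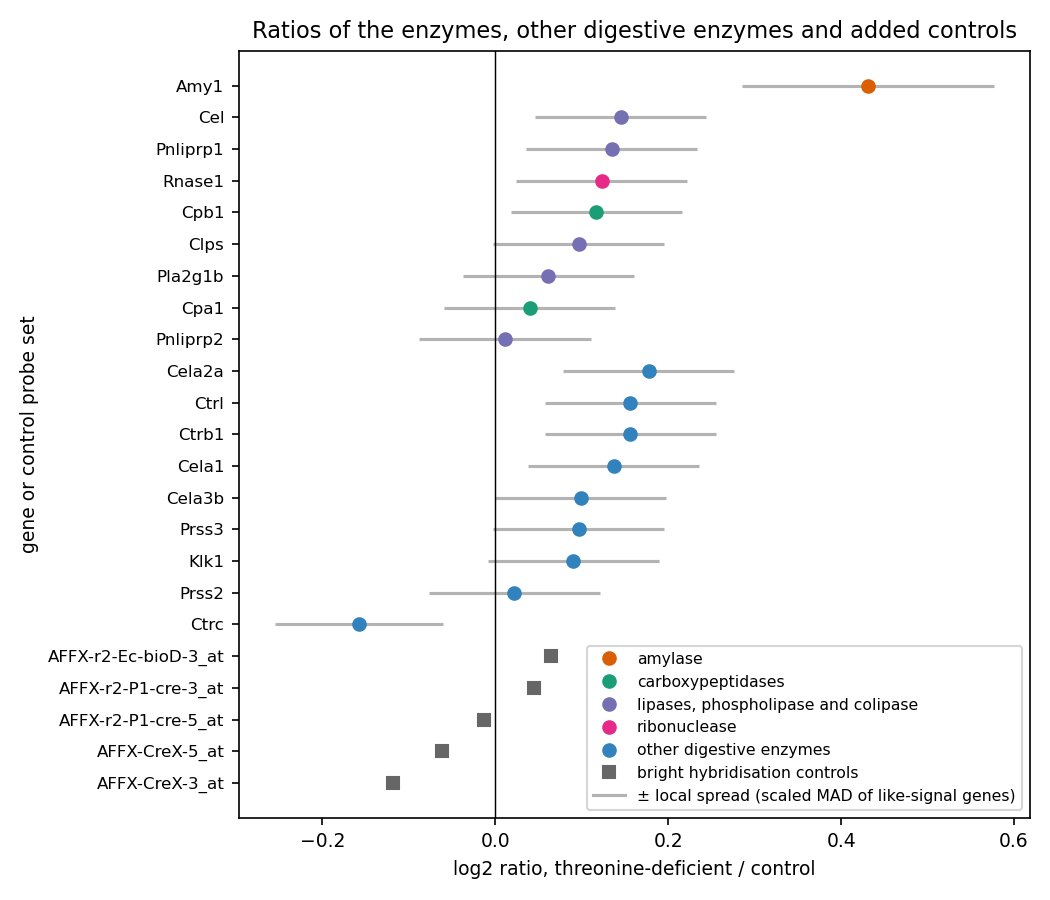
Log2 ratio of the threonine-deficient over the control pool for the 9 enzymes, 9 other digestive enzymes and 5 bright added control probe sets, with horizontal bars of plus and minus the local spread for genes. Amy1 at 0.43 lies right of all others, Ctrc at −0.16 lies farthest left, and the controls run from −0.12 to 0.064.

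The other digestive enzymes of the juice, 9 of 22 listed with a probe set of 1 symbol, had a wider range of ratios than the 8 bright genes. The median log2 ratio of these other enzymes was 0.099, with 8 positive and 1 negative, and none reached 0.32 in size. The median of the 8 bright genes was 0.11. The ends of the range were the elastase Cela2a at 0.18, from 165696 to 187359, and chymotrypsin C (Ctrc) at −0.16, from 64753 to 58030. Pancreatic lipase itself (Pnlip) was not analysed here.

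Bacterial and phage transcripts added to the hybridisation mix at fixed amounts gave a scale for differences that arise from that step on. Differences from RNA preparation and labelling are not in it. The 5 such control probe sets with a mean signal of 100000 or more had log2 ratios from −0.12 to 0.064, with a median of −0.013. They read only the cre and bioD transcripts, so they are not 5 independent readings. In the other control sets below, too, several probe sets read the same transcript. Pnliprp2, Cpa1 and Pla2g1b lay within that range, and Clps, Cpb1, Rnase1, Pnliprp1 and Cel lay above it. Over all 18 hybridisation controls the range was −0.32 to 0.064. The 24 polyadenylated controls, added to the RNA before labelling, were dimmer and ranged from −0.39 to 0.53, which covers all 9 enzymes, Amy1 included. Of these, the 5 within 1 log2 unit of Amy1 in brightness ran from −0.057 to 0.073, and the 7 hybridisation controls of like brightness from −0.20 to −0.066. The 70 probe sets with a mean signal of 100000 or more that were no controls had a median of 0.066, with 54 above 0. At this end of the scale signals can be compressed, which was not tested. The size of the bright genes' ratios is uncertain for that reason. The array maxima were 263446 and 275999.

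**Figure D4:**
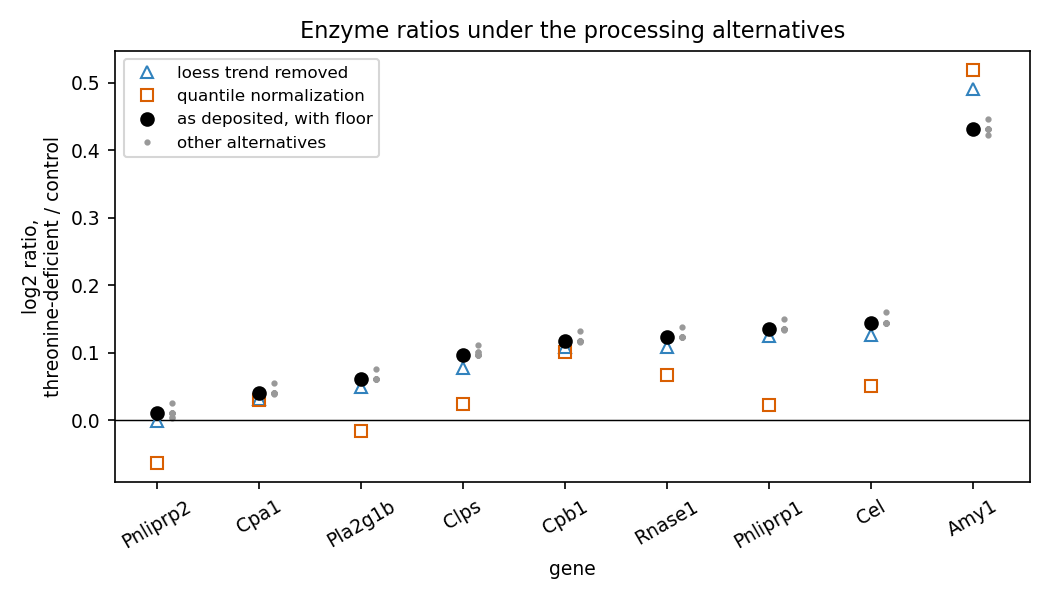
Log2 ratio of each enzyme gene as deposited with the floor (filled circles), after removal of a loess trend (triangles), after quantile normalization (squares) and under the other alternatives (small dots). Quantile normalization puts Pnliprp2 at −0.063 and Amy1 at 0.52, and Amy1 is the highest under each alternative that has a value for it.

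Transcription factors that govern the acinar programme had ratios in both directions. Ptf1a, which together with Rbpjl switches on enzyme genes, went from 15391 to 12748 (−0.27), and Rbpjl from 4659 to 4914 (0.077). Bhlha15, which builds the secretory apparatus, went from 11831 to 14448 (0.29), and Nr5a2, a nuclear receptor of acinar cells, from 3422 to 3724 (0.12). Gata4 had 0.42, Foxp1 0.34, Gata6 −0.21 and Xbp1, a factor of secretory cells, −0.028. Of these 8 genes 5 had positive ratios, those of 2, Gata4 and Foxp1, were above 0.32, and none was below −0.32, beside 18.7% and 16.6% of all genes above the floor. The median was 0.099.

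The PTF1 complex, of Ptf1a, a common E protein and Rbpjl, is known to bind a paired element in the promoters of enzyme genes, an E-box beside a TC-rich box. RefSeq promoter windows of build GRCm38.p6 were found for 8 of the 9 genes, in 9 windows, because Amy1 has 2. The 250 bases before each start were searched on both strands for the E-box CANNTG and for TTTCCC, which reads GGGAAA on the other strand. A CANNTG lay in 5 of the 9 windows and in 66.2% of all 32851. Both motifs within 30 bases of each other lay in 2 windows, those of Cel and Cpa1, against 5.34% of all. The letters TATAAA, searched on the strand of the gene in the last 50 bases, lay in none of the 9 and in 2.63% of all. The stretches of Cel and Cpa1 are shown as the windows that hold the paired letters, 5′ to 3′ on the strand of the gene, with the motifs in capitals. That of Cel is chr2:28563451-28563501 on the minus strand, with a gap of 15 bases between the motifs, and that of Cpa1 is chr6:30639168-30639216 on the plus strand, with a gap of 13.
Cel: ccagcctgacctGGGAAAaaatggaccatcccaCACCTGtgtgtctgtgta
Cpa1: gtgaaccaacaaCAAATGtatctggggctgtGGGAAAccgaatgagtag
A match of letters is no evidence of binding. Cel and Cpa1 had log2 ratios of 0.14 and 0.040, near opposite ends of the 8 bright genes.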

How the data were processed

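RNA from whole pancreas, 1 pool per group, had been labelled with biotin and hybridised to 2 arrays. The deposited values are linear signal intensities per probe set, made with MAS5 per the submitters' processing notes. The sources used here give no version of it. MAS5 brings both arrays to 1 overall level, so a change in the total amount of mRNA would not show. Probe sets were named from the platform annotation, and 34741 of 34945 with 1 symbol matched RefSeq by gene identifier. The 64 control probe sets, 932 with several symbols and 9160 with none were left out of gene values.

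The 60th percentile of signal was taken on each array, and signals under the higher of these were raised to it before log2 was taken (Python 3.11.15, numpy 2.4.6, pandas 2.3.3). The local spread is 1.4826 times the median absolute deviation. Log2 ratios of 0.32 and 1 were used for counts. No test was possible with 1 pool per group, and the number of arrays limits the precision. The scripts were tested on simulated data. The genes and lists were chosen with earlier results of these data known. The naming rule took all 9 genes with all their probe sets, the ends of the other digestive enzymes, the 8 brightest relatives and each acinar regulator. Nedd4, Trp53inp1, 2210010C04Rik, Pla2g2d, Pla2g12b, Lipe, Pla2g2a, Cpm, Cpq and the cell type markers named lie outside that rule. They were picked with their values in view. With 2 samples no likeness of pattern between genes could be ranked.

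Alternatives were other floors, none or a pseudocount, median centring, removal of a loess trend (statsmodels 0.14.6), quantile normalization, and other ways to combine the probe sets of a gene.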

Additional observations from a re-analysis of the deposited data

How the results depend on the processing

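All 9 enzyme genes kept a positive log2 ratio under each floor, the pseudocount, median centring and both ways to combine probe sets. After loess removal Pnliprp2 was at −0.0011, and after quantile normalization Pnliprp2 was at −0.063 and Pla2g1b negative as well, with a median over the 9 genes of 0.030. Amy1 ranged from 0.42 with the pseudocount to 0.52 with quantile normalization. Without probe sets of a sharing suffix Amy1 had no value, and 0 of the other 8 genes had a log2 ratio of 0.32 or more.

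The counts over all genes moved more. The main counts were 2012 higher and 1790 lower at a log2 ratio of 0.32, and 138 and 94 at 2-fold. With no floor they were 5672 and 4815, and 2559 and 1951, over all genes. At 2-fold they were 341 and 206 with the floor at the 50th percentile, 86 and 52 with the pseudocount, 65 and 39 with the median over probe sets, and 68 and 46 with the mean signal over probe sets. With the floor at the 75th percentile they were 903 and 1012 at a log2 ratio of 0.32 and 23 and 23 at 2-fold, and with the median over probe sets 1228 and 1029 at a log2 ratio of 0.32. No paired analysis was possible because each group had 1 pool.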
